A study of Mus musculus with 8 samples.

Results

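The genes described here encode the proteins of the mitochondrial ribosome and were taken by name: every protein-coding gene whose symbol starts with Mrpl or Mrps in the deposited table. That gave 78 genes of 49584 annotated features, 49 named Mrpl for the large subunit and 29 named Mrps for the small subunit. RNA from crude heart mitochondria of 8 mice had been sequenced as paired ends, with 1 library per mouse. The 4 control mice carried loxP-flanked alleles of Tefm, the mitochondrial transcription elongation factor, and no cre (L/L, genotype label Tefm +/+). The 4 knockout mice carried the same flanked alleles together with cre driven by the muscle creatine kinase promoter (L/L, cre, genotype label Tefm -/-), a promoter of striated muscle cells, so other cells of the heart are expected to keep an intact Tefm gene. The sources used here give neither age nor sex. The comparison asks how RNA levels of the nuclear genes for the mitochondrial ribosome differed in this fraction when the factor was removed from heart muscle.

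The mitochondrial ribosome makes the few proteins encoded by mitochondrial DNA, all of them core parts of the respiratory chain and the ATP synthase. Its ribosomal RNAs, mt-Rnr1 in the small and mt-Rnr2 in the large subunit, are transcribed inside the organelle, whereas all of its proteins are encoded in the nucleus, made in the cytosol and imported. Part of the proteins descend from bacterial ribosomal proteins and the others were added in the course of mitochondrial evolution, which makes the particle richer in protein and poorer in RNA than its bacterial ancestor. The heart, with its high demand for ATP, is rich in mitochondria and depends on this machinery.

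Libraries held 21108165 to 27403415 counts, of which 72.3% to 74.0% came from mitochondrial DNA in controls and 38.7% to 59.3% in knockouts, knockout 1 being the highest of its group. Counts of nuclear genes therefore numbered 6825329 to 7596951 in controls and 10331611 to 13204546 in knockouts. The 78 genes together received 19234 to 21491 counts in controls and 28080 to 36079 in knockouts, which was 0.270% to 0.283% and 0.272% to 0.286% of the nuclear counts. Values below are CPM, counts scaled to a library of fixed size, after TMM scaling, which sets libraries to a common level over most genes, so every rise or fall is relative to the bulk of nuclear RNA. Gene-level Tefm was 6.24 ± 0.639 CPM in controls and 6.86 ± 0.596 CPM in knockouts (SD, n = 4 each). It was not called (log2 fold change 0.14, SE 0.11, Benjamini-Hochberg adjusted p = 0.324 by edgeR quasi-likelihood), and a count over all exons does not check the removal of an exon, which the labels do not number. The summed CPM of 6 cardiomyocyte markers was 11883 to 12647 in controls and 6158 to 9038 in knockouts, with 1 of the 6 higher and 4 lower. That of 4 fibroblast markers was 161 to 178 and 185 to 269, with 2 higher. Endothelial markers summed to 314 to 331 and 267 to 298 (2 of 4 lower), smooth muscle and pericyte markers to 485 to 510 and 421 to 472 (1 of 4 lower), macrophage markers to 29.9 to 40.9 and 29.1 to 36.8, and red blood cell markers to 172 to 444 and 168 to 885, with none of these last 8 called. No marker of the 6 heart cell types examined was at 0 in any library. In such bulk RNA, fewer cells of a type and less RNA per cell cannot be told apart. The RNA came from crude mitochondria, so a changed level in the cell and a changed share in that fraction cannot be told apart either. The part of these markers in the results below was not tested.

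Messenger RNAs for the mitochondrial ribosome did not move as a block. Of the 77 genes with enough counts to test, 22 rose, 22 fell and 33 were not called at a false discovery rate of 0.05 (edgeR quasi-likelihood test, adjusted over 17891 features). That is 57.1% called, against 50% of all features tested (26.1% higher and 23.9% lower). Their median log2 fold change was -0.02, the quartiles were -0.30 and 0.29, and the extremes were -0.98 and 1.03; all features had a median of -0.01 and quartiles of -0.38 and 0.37. A called change of at least 1.5-fold was seen for 7 of the 77 genes upward and 6 downward. Among all 17891 features tested, it was seen for 2772 upward and 2565 downward. The 4 knockout libraries did not overlap the 4 controls for 39 of the 77 genes, beside 45.4% of all features. Scaling by library totals instead, in which the mitochondrial RNA counts too, shifted the median of all features by 0.99 and gave 69 genes that rose and 0 that fell, beside 81.3% of all features called, 78.6% higher and 2.68% lower; each fall of a ribosomal protein gene given below holds relative to nuclear RNA and turned to a value above 0 under that scaling, except that of Mrps33, which came to 0.00. Without knockout 1, which stood apart in its mitochondrial share, 22 genes rose and 25 fell. The share of all features called in that fit was not counted. The authors' deposited table, made with DESeq2, called 22 of the 77 higher and 19 lower, where 35.4% of all features with an adjusted p were called, 19% higher and 16.4% lower, and no gene called by both had opposite signs.

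**Figure D1:**
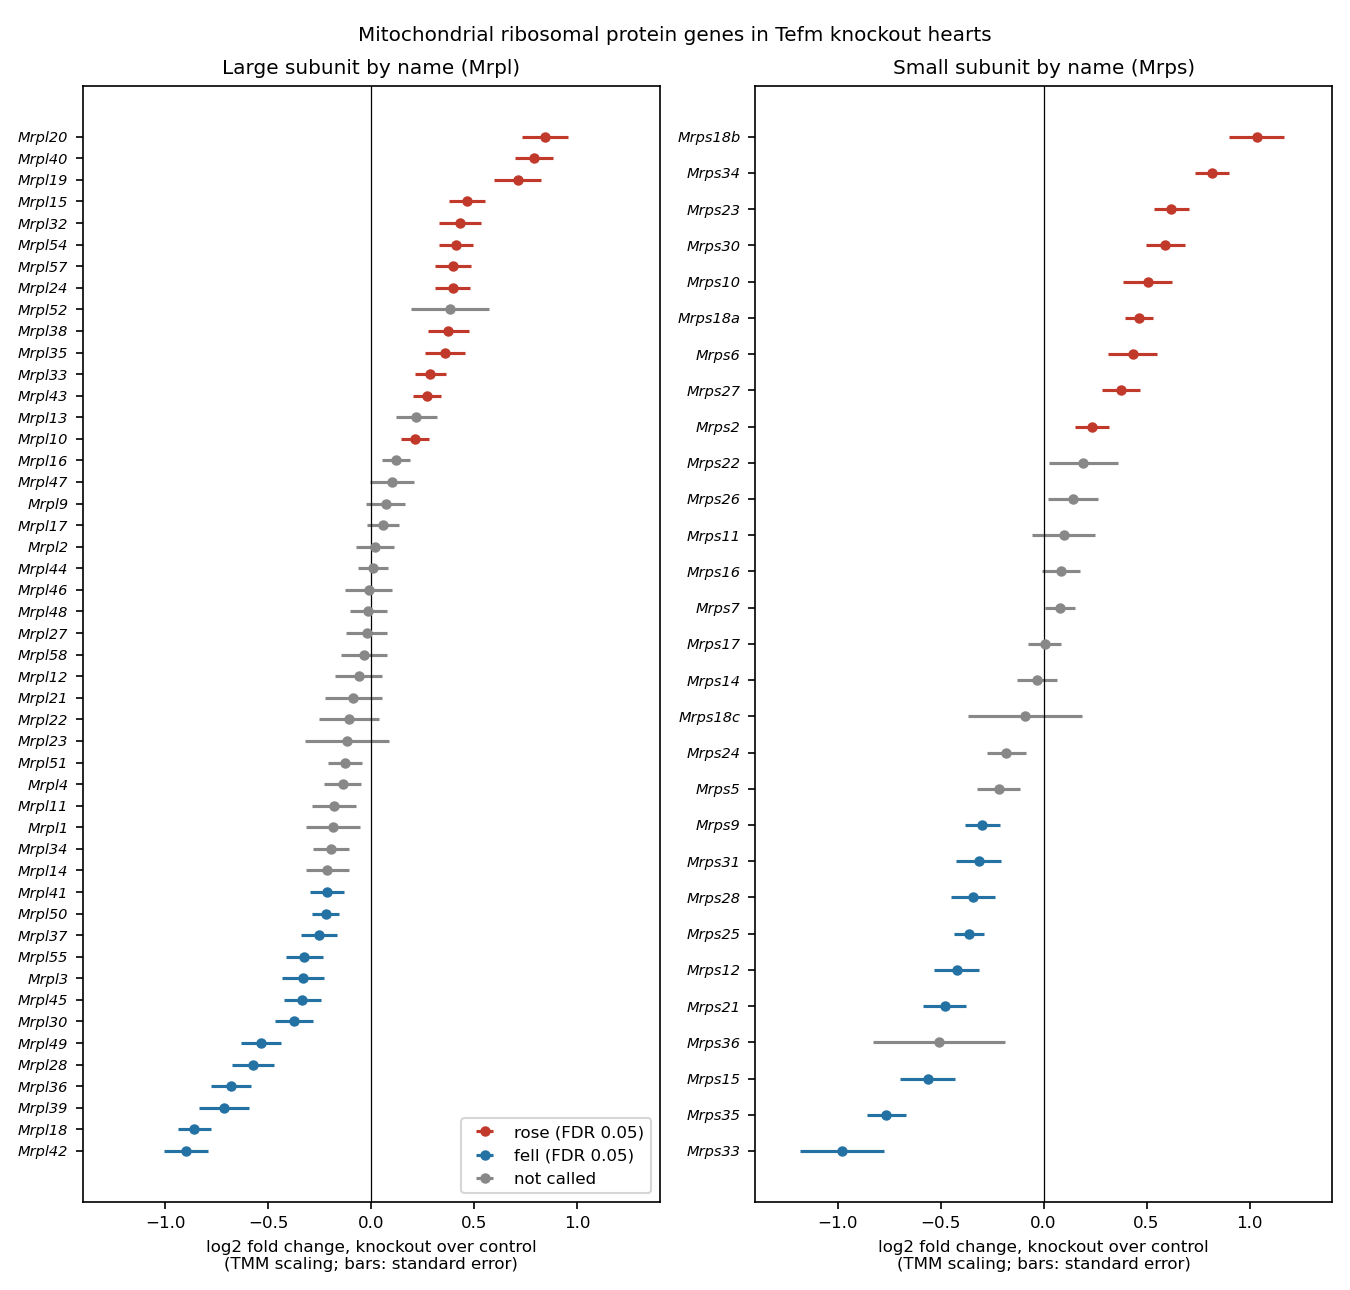
Log2 fold change of each of the 77 tested genes, knockout over control, on the horizontal axis, with genes named Mrpl on the left and Mrps on the right, ordered by value; bars are standard errors and colours give the call at a false discovery rate of 0.05. The left panel runs from -0.90 (Mrpl42) to 0.84 (Mrpl20) and the right from -0.98 (Mrps33) to 1.03 (Mrps18b), with 13 genes rising and 13 falling on the left and 9 and 9 on the right.

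Rises and falls were also even in each subunit, as they nearly were among all features tested (26.1% higher and 23.9% lower). Of 48 Mrpl genes tested, 13 rose and 13 fell (54.2% called) with a median of -0.03 on the log2 scale. Of 29 Mrps genes, 9 rose and 9 fell (62.1% called) with a median of 0.01, beside 50% of all features called. The counts for the groups that follow stand beside the same all-feature shares. Names and structure differ for a few genes, since the products of Mrps18a and Mrps30 sit in the large subunit and that of Mrps36 belongs to the 2-oxoglutarate dehydrogenase complex. Grouped by structure, the large subunit had 15 genes that rose and 13 that fell of 50 (median -0.02), and the small subunit 7 and 9 of 26 (median -0.01). Genes with a bacterial homologue gave 8 that rose and 6 that fell of 30 in Mrpl, and 3 and 5 of 16 in Mrps. Those without one gave 5 and 7 of 18 in Mrpl, and 6 and 4 of 13 in Mrps. Of the relatives Mrps18a, Mrps18b and Mrps18c, this division counts only Mrps18c as having a bacterial homologue. No difference between these groups of genes was tested.

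Among the large-subunit genes, the largest rises were those of Mrpl20, Mrpl40 and Mrpl19. Mrpl20, the homologue of a bacterial protein that acts early in large-subunit assembly (ENSMUSG00000029066.12, chr4:155802878-155809975, plus strand, mm10), was at 6.01, 6.92, 7.64 and 6.13 CPM in the 4 controls. In the knockouts it was at 14.0, 11.7, 11.3 and 11.1 CPM. Every knockout library lay above every control, a 1.79-fold rise (log2 fold change 0.84, SE 0.11, adjusted p = 2.37e-05 by edgeR quasi-likelihood). Mrpl40, a protein without a bacterial homologue, was at 7.54, 6.24, 7.14 and 6.78 CPM in controls and at 11.7, 11.3, 12.5 and 12.4 CPM in knockouts, 1.73-fold higher with no overlap (adjusted p = 7.76e-06 by edgeR). Mrpl19 rose from 14.3 ± 1.34 to 23.4 ± 3.82 CPM (SD, n = 4 each), and 36.0% of its exon length lies in Gcfc2 on the other strand, whose own log2 fold change was -0.23 and not called. The labels do not say whether strand was used in counting, so reads of overlapping genes on opposite strands may not be separated. The next rises were smaller: Mrpl15 by 0.46, Mrpl32, which the m-AAA protease matures inside the organelle, by 0.43, and Mrpl54 by 0.41 on the log2 scale, each with no overlap between groups.

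Falls in the large subunit were led by Mrpl42, Mrpl18 and Mrpl39. Mrpl42 was at 19.4, 21.2, 24.1 and 24.8 CPM in controls and at 14.3, 10.4, 11.8 and 11.7 CPM in knockouts. Mrpl18, the homologue of a bacterial protein that binds the small ribosomal RNA of the large subunit (ENSMUSG00000057388.9, chr17:12911349-12916345, minus strand), was at 27.8, 32.3, 31.0 and 30.5 CPM in controls and at 18.1, 15.2, 16.6 and 17.2 CPM in knockouts. For both genes all 4 knockouts lay below all 4 controls, with log2 fold changes of -0.90 (SE 0.11) and -0.86 (SE 0.08) and edgeR adjusted p of 9.39e-06 and 8.20e-07. Tcp1, which shares 10.1% of Mrpl18's exon length on the other strand, moved the other way, by 0.47. Mrpl39 went from 11.2 ± 1.38 to 6.86 ± 0.992 CPM and Mrpl36, the homologue of a very small bacterial protein, from 14.0 ± 1.01 to 8.76 ± 0.889 CPM (SD, n = 4 each). Mrpl28 and Mrpl49 fell by 0.57 and 0.53 on the log2 scale, again with no overlap.

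Genes named Mrps moved over a similar range. Mrps18b, 1 of 3 mammalian relatives of a single bacterial protein (ENSMUSG00000024436.16, chr17:35910379-35916389, minus strand), was at 2.74, 3.25, 2.55 and 2.54 CPM in controls and at 4.89, 6.25, 5.86 and 5.64 CPM in knockouts. It rose 2.05-fold with no overlap (log2 fold change 1.03, SE 0.13, adjusted p = 2.05e-05 by edgeR quasi-likelihood), and 30.5% of its exon length lies in the opposite-strand gene Gm16279, which rose by 0.68. Of its relatives, Mrps18a rose by 0.46, with knockouts at 20.3 to 20.7 CPM and controls at 14.0 to 15.4 CPM, and Mrps18c, with 8 to 23 counts per library, was at -0.09 (SE 0.28) and not called. Mrps34, a protein needed for a stable small subunit, was at 12.4, 13.8, 13.4 and 12.7 CPM in controls and at 20.6, 24, 24.5 and 23 CPM in knockouts (log2 fold change 0.82, adjusted p = 1.63e-06 by edgeR). As much as 77.8% of its exon length is shared with Nme3 on the same strand and Mapk8ip3 on the other. Mapk8ip3 was at -0.12 and not called, and no value is available for Nme3. Mrps30 and Mrps10 rose by 0.59 and 0.51 without overlap between groups; B430218F22Rik, which shares 9.35% of Mrps30's exon length on the other strand, rose by 0.68.

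Mrps33 had the largest fall of the 77 genes, from 2.27, 2.41, 3.76 and 3.09 CPM in controls to 1.64, 1.22, 1.27 and 1.73 CPM in knockouts. The groups did not overlap (log2 fold change -0.98, SE 0.20, adjusted p = 0.00116 by edgeR quasi-likelihood), but the gene held only 42 to 68 counts per library. Mrps35 was at 20.1, 18.6, 19.6 and 20.1 CPM in controls and at 13.2, 9.49, 12.2 and 11.4 CPM in knockouts, a fall of 0.76 (SE 0.10) with no overlap and many more counts. Mrps15, Mrps21 and Mrps12, all homologues of bacterial proteins, fell by 0.56, 0.48 and 0.42. Mrps12 is the protein of the decoding centre. Mrps25 fell by 0.36, and 69.8% of its exon length lies in Nr2c2 on the other strand, which was lower by 0.22.

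**Figure D2:**
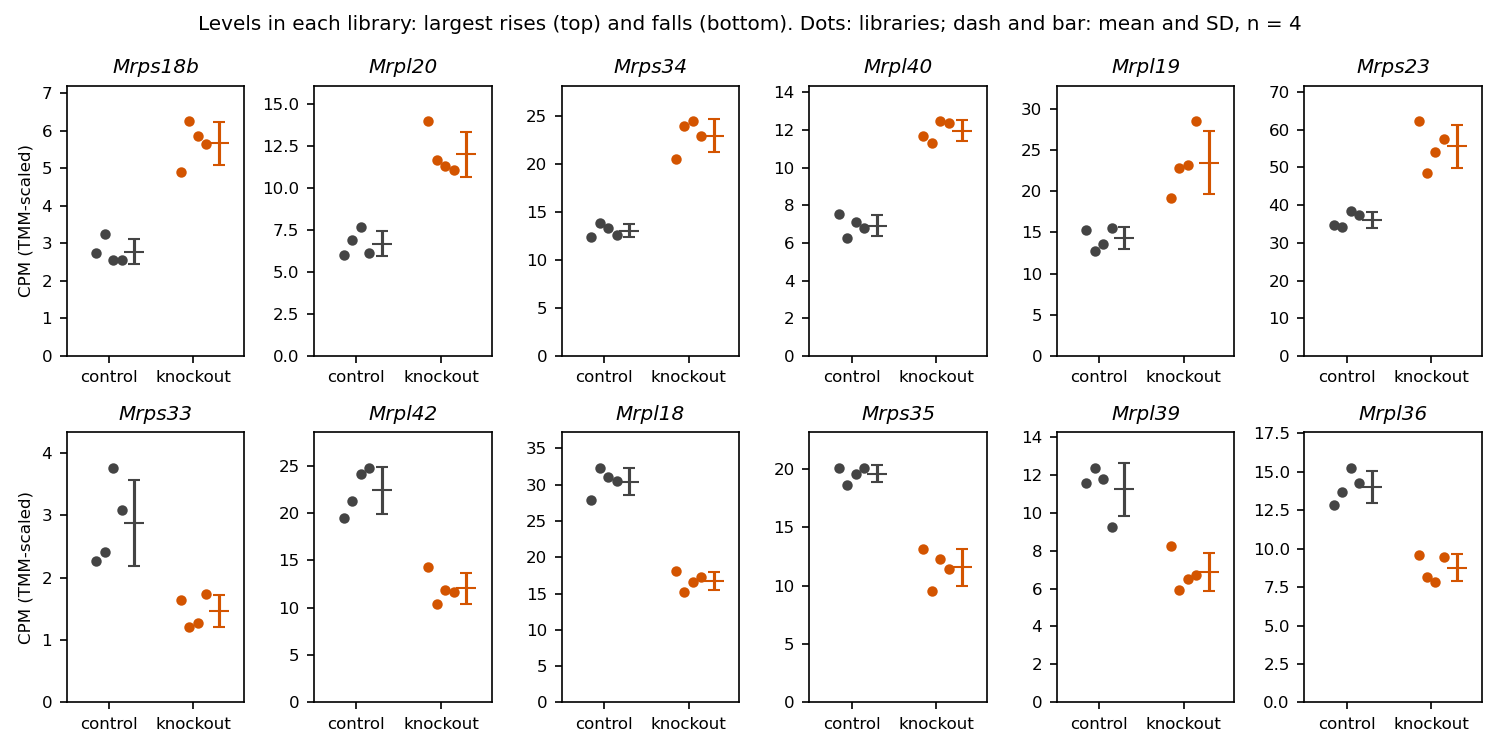
TMM-scaled CPM in each library (dots) for the 6 genes with the largest rises (top) and the 6 with the largest falls (bottom); the dash and bar are mean and SD, n = 4, and each vertical axis starts at 0. In all 12 panels the control and knockout dots occupy separate ranges, for example 2.54 to 3.25 against 4.89 to 6.25 CPM for Mrps18b.

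Several genes were followed for their roles, whatever their values. Mrpl12, whose product has also been reported to bind the mitochondrial RNA polymerase, was at 24 ± 3.27 CPM in controls and 23 ± 3.29 CPM in knockouts (SD, n = 4 each; 95% confidence interval of the log2 fold change -0.30 to 0.18). Mrpl44, a large-subunit protein of the RNase III family, was at 17.5 ± 0.248 and 17.6 ± 1.06 CPM, and Mrpl58, a peptidyl-tRNA hydrolase that became part of the large subunit, at 9.76 ± 0.726 and 9.54 ± 1.41 CPM. None of these genes was called by edgeR. Mrpl3, the homologue of a bacterial protein that reaches towards the peptidyl transferase centre, fell by 0.33 (adjusted p = 0.0156 by edgeR), although its groups overlapped at 21 CPM in knockout 4 and 20.2 CPM in control 1. Without control 3 its adjusted p was 0.0558.

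Levels per length ranged widely among these genes. Mrpl34 stood highest among the Mrpl genes, at 34.4 ± 2.46 CPM per kilobase of annotated exon in controls, and Mrpl23 lowest among those tested, at 0.368 ± 0.0681 (SD, n = 4). Mrps23 was highest among the Mrps genes at 23.2 ± 1.36 and Mrps36 lowest at 0.492 ± 0.131. Both low values leave out the reads counted for processed copies, described below. With copies included, the mean control level went from 1.79 to 17.6 CPM for Mrpl23 and from 0.627 to 12.5 CPM for Mrps36. The copy Mrpl23-ps1 is identical to Mrpl23 over 81.6% of the coding sequence. Which of these reads come from the gene was not tested. Mrps23 was also among the risers: it was at 34.6, 34.1, 38.5 and 37.4 CPM in controls and at 62.2, 48.6, 54.0 and 57.4 CPM in knockouts, so that its 4 knockouts lay above all controls (1.54-fold, adjusted p = 3.38e-05 by edgeR). Mrpl53 could not be tested, with 0 or 1 count in each library, and 88.0% of its exon length is shared with 2 other genes.

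**Figure D3:**
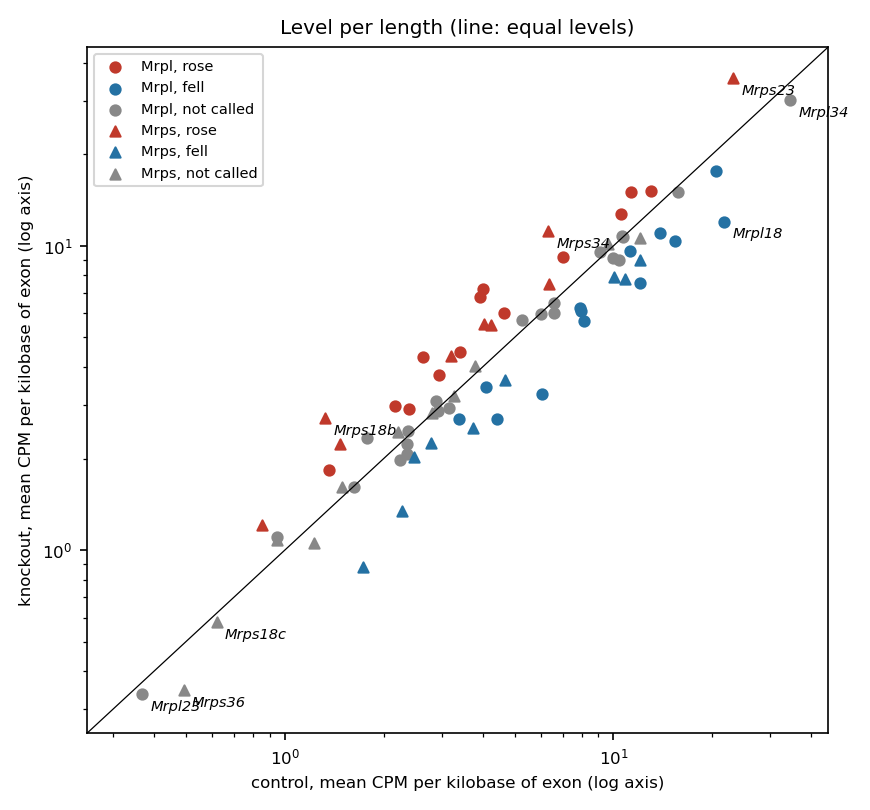
Mean CPM per kilobase of annotated exon in controls (horizontal, log axis) and knockouts (vertical, log axis) for the 77 tested genes, with circles for Mrpl, triangles for Mrps and colours for the call; the line marks equal levels. Levels in controls, without the reads of processed copies, span 0.368 (Mrpl23) to 34.4 (Mrpl34), and Mrps23 lies above the line at 23.2 in controls and 35.6 in knockouts.

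Summed over genes, the balance of the 2 subunits shifted by a small amount. The ratio of Mrpl to Mrps counts was 2.16, 2.17, 2.15 and 2.17 in the 4 controls and 1.94, 1.92, 1.96 and 2.01 in the 4 knockouts, a ratio that no scaling of libraries affects. All knockouts lay below all controls, with means of 2.16 ± 0.0131 and 1.96 ± 0.0386 (SD, n = 4 each) and a log2 difference of -0.14. Mrps23 alone made up 10.9% ± 0.384 of the Mrps counts in controls and 15.7% ± 1.17 in knockouts; without it the ratio was 2.43 ± 0.0106 and 2.32 ± 0.0624 and the log2 difference -0.06, still without overlap. With Mrps18a and Mrps30 counted as large-subunit genes, the ratio was 2.42 ± 0.0270 and 2.29 ± 0.0303, a difference of -0.08. Giving each gene the same weight left a difference of -0.02 with overlapping groups. The ratio of the ribosomal RNAs changed far more. Counts of mt-Rnr1 divided by those of mt-Rnr2 gave 0.100 ± 0.00147 in controls and 0.894 ± 0.0383 in knockouts, 8.94-fold higher. This is a ratio of counts, not corrected for length. Whether the libraries recovered the 2 RNAs alike was not tested. mt-Rnr2 fell (log2 fold change -2.23, SE 0.33) and mt-Rnr1 rose (0.91, SE 0.26) relative to nuclear RNA in edgeR's test. Without knockout 1 the values were -2.65 and 0.54, and the log2 difference of the Mrpl to Mrps ratio stayed at -0.14.

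**Figure D4:**
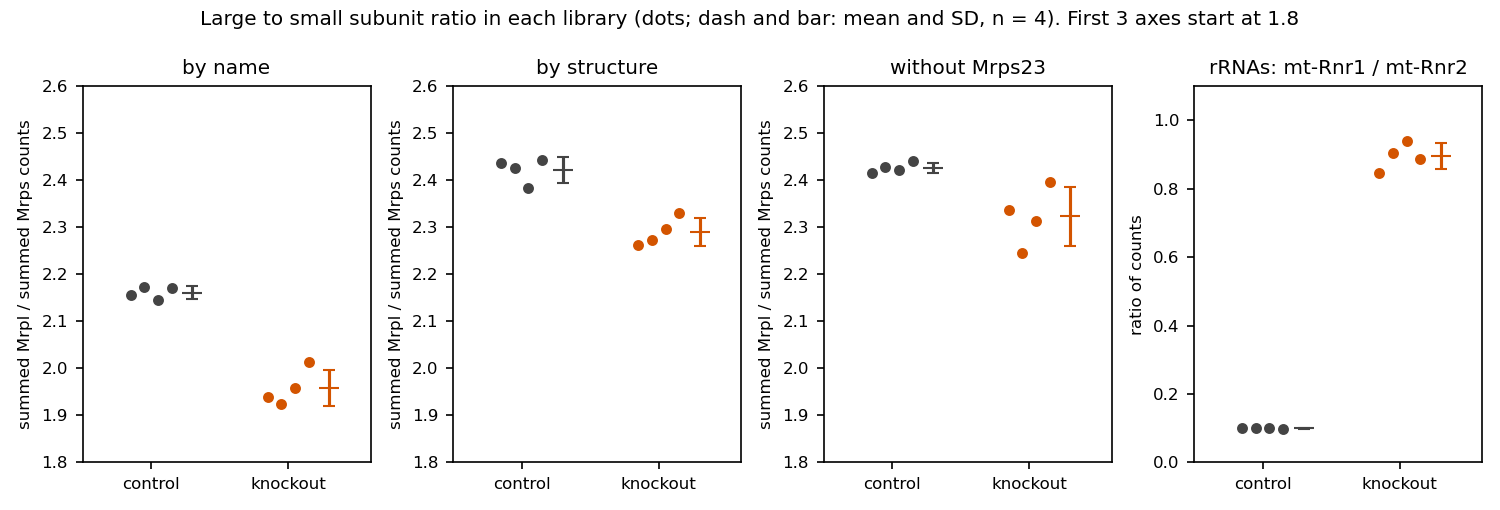
Ratio of summed Mrpl to summed Mrps counts in each library by name, by structure and without Mrps23 (first 3 panels, axes from 1.8), and mt-Rnr1 counts divided by mt-Rnr2 counts (last panel, axis from 0); dots are libraries, the dash and bar are mean and SD, n = 4. Knockouts lie below controls in the first 3 panels, 1.92 to 2.01 against 2.15 to 2.17 by name, and far above them in the last.

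Near-identical processed copies, formed when a spliced messenger RNA is copied back into the genome, bear on many of these values. A search of the annotated transcripts with each coding sequence found 38 copies of 21 genes at 90% identity or more over at least 50% of the coding sequence. For 10 of the 21 genes, the copies held more control counts than the gene. The labels do not say how reads that match several places were counted, so the split of reads between a gene and its copies is uncertain. The next counts are raw sums, not scaled for the higher nuclear counts of knockouts. The best case to see is Mrps33, with 219 control and 184 knockout counts in all, beside its copy Gm5776 with 757 and 1124. Over the 318 bases of the coding sequence the 2 differ at 1 base, G171A from gene to copy, counted from the first base of the start codon. The gene lies at chr6:39801804-39810988 and the copy at chr7:54412158-54412478 (GRCm38, minus strand both), and their first 300 coding bases show how little a short read has to tell them apart, with the differing base in capitals.

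Mrps33, bases 1 to 300: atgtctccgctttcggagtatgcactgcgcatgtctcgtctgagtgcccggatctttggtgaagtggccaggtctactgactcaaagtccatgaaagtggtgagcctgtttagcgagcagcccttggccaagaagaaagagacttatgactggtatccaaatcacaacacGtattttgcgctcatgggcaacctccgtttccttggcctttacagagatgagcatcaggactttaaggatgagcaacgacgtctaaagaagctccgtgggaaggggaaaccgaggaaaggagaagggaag

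Gm5776, bases 1 to 300: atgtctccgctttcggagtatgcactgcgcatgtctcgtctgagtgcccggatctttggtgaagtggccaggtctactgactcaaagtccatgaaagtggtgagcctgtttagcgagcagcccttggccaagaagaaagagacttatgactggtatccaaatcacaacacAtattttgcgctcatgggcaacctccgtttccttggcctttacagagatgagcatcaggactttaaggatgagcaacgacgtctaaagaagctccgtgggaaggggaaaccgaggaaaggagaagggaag

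Adding the counts of its copies to each gene left 18 of the 21 calls as they were and changed 3. Mrps33 moved from -0.98 to -0.32 on the log2 scale and remained a fall, and Mrps18b from 1.03 to 1.28 with its copy Gm13552. Mrps18c, at 51 control counts against 369 in Gm15946, went from -0.09 to 0.58 (SE 0.11, adjusted p = 0.000618 by edgeR), a rise. Mrps36 went from -0.51 to -0.77 (adjusted p = 0.000422 by edgeR), with most of its reads in Mrps36-ps1 and Mrps36-ps2, and Mrpl21 from -0.09 to 0.18 (adjusted p = 0.0448 by edgeR), with most in D9Wsu149. Mrpl42, whose copy Gm6419 held 5155 control counts against 1706 in the gene, kept its fall at -0.79. Mrpl21 and the copies were singled out after their values had been seen. Among the 50 genes with neither a copy nor over 20% of exon length in another gene, 15 rose and 14 fell with a median of 0.01. That is 58% called, beside 50% of all features tested (26.1% higher and 23.9% lower).

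**Figure D5:**
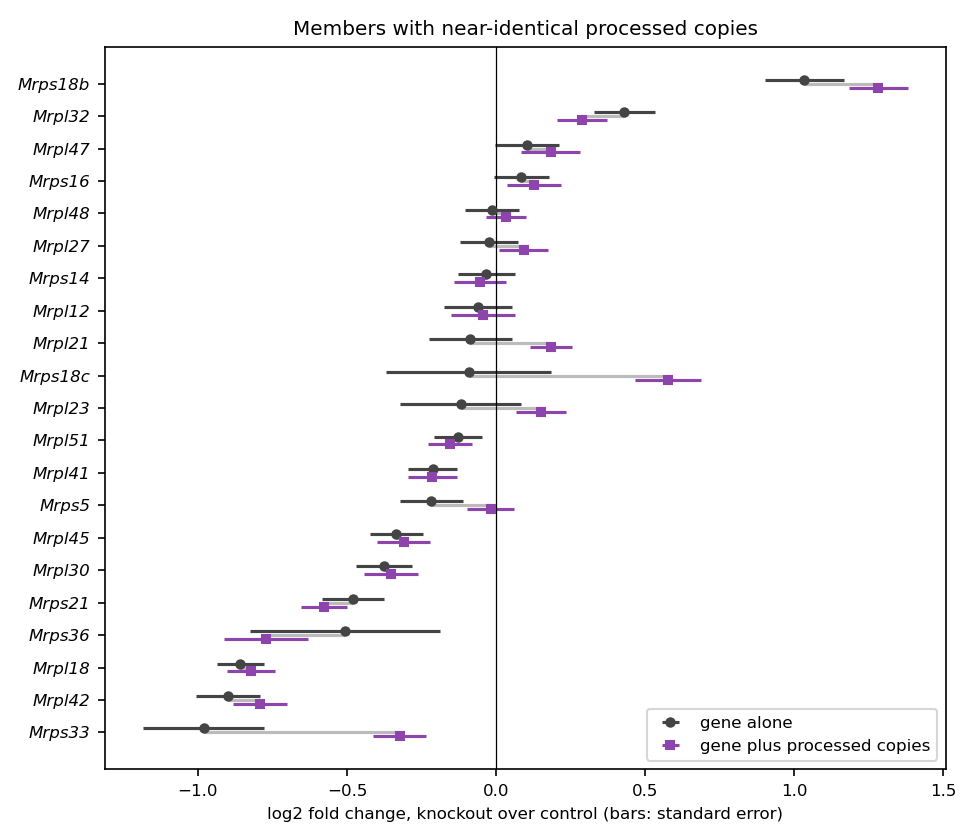
Log2 fold change, knockout over control, of the 21 genes that have processed copies, from the gene alone (circles) and from gene and copies together (squares); bars are standard errors. Mrps33 moves from -0.98 to -0.32 and Mrps18c from -0.09 to 0.58, while Mrpl42 stays near -0.8.

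Promoters of these genes are known for binding sites of NRF1, ETS-family factors (which include the factor once called NRF2) and YY1. In RefSeq windows from 250 bases before to 50 after the start (GRCm38.p6), matched for 69 of the 78 genes, a 10-letter NRF1 motif, in capitals in the Mrpl32 window, occurred in 18.8%, against 10.8% of 10662 tested genes with a window. The ETS motif CCGGAAG occurred in 37.7% against 18.7%, and a 10-letter YY1 motif, the capitals after the start in the Mrps18a window, in 7.25% against 2.21%. TGATGNAA, the core of the element read by ATF4 and its partners, was in 0 of 69 windows against 2.74%. Both strands were searched, N is any base, a gene with several windows counted once if any held the motif, and a missing match says only that these letters are not in the window. Matches stood in genes of both directions: NRF1 in 2 of 17 that rose and 5 of 20 that fell, ETS in 7 and 5, YY1 in 3 and 1. A match describes letters and is not a measured site. The starts are those of RefSeq and can differ from the ends of the GENCODE genes above. The windows printed are, for each subunit, those of the largest rise and the largest fall that hold an NRF1, ETS or YY1 match, and that of Mrps18a, with matches in capitals and each read 5′ to 3′ along the strand of its gene.

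Mrpl32, rose, chr13:14612988-14613287, minus strand: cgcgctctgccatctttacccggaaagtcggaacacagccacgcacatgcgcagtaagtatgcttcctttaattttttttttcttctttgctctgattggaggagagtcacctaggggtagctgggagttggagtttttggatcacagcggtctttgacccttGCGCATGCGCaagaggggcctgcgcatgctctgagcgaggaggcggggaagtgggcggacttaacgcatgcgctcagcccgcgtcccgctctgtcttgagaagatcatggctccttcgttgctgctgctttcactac

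Mrps18b, rose, chr17:35916391-35916690, minus strand: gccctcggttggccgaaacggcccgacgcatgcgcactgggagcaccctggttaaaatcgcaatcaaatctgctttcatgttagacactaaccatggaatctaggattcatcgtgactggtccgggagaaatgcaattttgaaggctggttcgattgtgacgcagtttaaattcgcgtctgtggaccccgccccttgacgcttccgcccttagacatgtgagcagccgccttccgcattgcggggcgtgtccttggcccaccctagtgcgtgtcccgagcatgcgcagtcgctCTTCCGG

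Mrps18a, rose, chr17:46110754-46111053, plus strand: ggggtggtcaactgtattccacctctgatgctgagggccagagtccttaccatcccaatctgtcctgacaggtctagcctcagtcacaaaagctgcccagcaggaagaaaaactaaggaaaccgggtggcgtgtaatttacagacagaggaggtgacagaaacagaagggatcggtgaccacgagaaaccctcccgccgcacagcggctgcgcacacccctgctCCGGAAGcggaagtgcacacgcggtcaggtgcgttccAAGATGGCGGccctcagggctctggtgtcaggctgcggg

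Mrpl18, fell, chr17:12916042-12916341, minus strand: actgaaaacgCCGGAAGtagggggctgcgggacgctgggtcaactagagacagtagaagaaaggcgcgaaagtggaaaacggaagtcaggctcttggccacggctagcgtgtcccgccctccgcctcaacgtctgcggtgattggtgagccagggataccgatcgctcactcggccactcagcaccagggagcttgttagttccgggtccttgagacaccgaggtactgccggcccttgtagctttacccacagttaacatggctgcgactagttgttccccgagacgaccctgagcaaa

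Mrps33, fell, chr6:39810887-39811186, minus strand: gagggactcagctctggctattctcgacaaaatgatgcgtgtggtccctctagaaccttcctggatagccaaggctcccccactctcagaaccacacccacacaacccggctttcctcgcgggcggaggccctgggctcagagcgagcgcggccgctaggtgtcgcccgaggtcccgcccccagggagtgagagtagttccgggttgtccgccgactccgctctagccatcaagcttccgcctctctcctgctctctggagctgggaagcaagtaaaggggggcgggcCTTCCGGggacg

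Mrpl32 has an NRF1 match 87 bases before its start, a palindrome read on both strands. Mrps18a has an ETS match 26 bases before and a YY1 match 11 bases after its start, and Mrpl18 an ETS match 240 bases before. Mrps18b and Mrps33 have ETS matches on the other strand 43 and 38 bases after theirs. All these distances are from RefSeq starts. By the GENCODE gene ends, the Mrpl32 and Mrpl18 matches lie inside the genes and the Mrps18b match lies upstream of the gene.

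Ribosomal proteins that carry other names, counted here and below together with Oxa1l, an insertase and not a ribosomal protein, moved in both directions. Of 6 found, beside all-feature shares of 26.1% higher and 23.9% lower, Chchd1 and Aurkaip1 of the small subunit rose, Ptcd3 of the small subunit and Oxa1l, the insertase that docks with the ribosome, fell, and Dap3 and Gadd45gip1 were not called. Chchd1 was at 10.3, 11.1, 12.8 and 10.5 CPM in controls and at 14.3, 14.9, 12.9 and 14.9 CPM in knockouts, 1.27-fold higher with no overlap, and Aurkaip1 rose by 0.20 (adjusted p = 0.0428 by edgeR). Chchd1 alone was called higher under DESeq2, nuclear totals, the replicate block and 5 of the 8 fits that left out 1 library. Ptcd3 and Oxa1l, at -0.23 and -0.22, were small changes whose calls were lost under several alternatives (edgeR and DESeq2 adjusted p of 0.0544 to 0.122 and 0.0559 to 0.167 where lost). Factors that assemble the ribosome or modify its RNA gave 7 that rose and 5 that fell of 26, or 46.2% called beside 50% of all features, with a median of 0.00. Mterf4, which brings the methyltransferase Nsun4 to the large subunit, was at 12.8, 13.3, 13.2 and 13.5 CPM in controls and at 7.57, 5.90, 6.12 and 6.59 CPM in knockouts (log2 fold change -1.02, adjusted p = 1.03e-06 by edgeR; -0.04 and not called under library totals). Nsun4 itself rose by 0.45. Mrm2, which methylates mt-Rnr2, fell by 0.97, and Ddx28, a helicase of large-subunit assembly, rose by 0.71, both without overlap between groups.

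Of 15 mitochondrial translation factors and mRNA cofactors found, 0 rose and 5 fell, beside 26.1% of all features higher and 23.9% lower; 6 had an unadjusted p under 0.05 in edgeR. DESeq2 called 0 higher and 3 lower (36.2% of all features called, 19.4% higher and 16.8% lower), and edgeR called 3 lower without control 1 or without knockout 2. Tufm, the elongation factor that brings aminoacyl-tRNA to the ribosome, was at 14.1, 13.3, 14.7 and 14.9 CPM in controls and at 9.18, 7.93, 9.12 and 9.39 CPM in knockouts, and fell by 0.68 (SE 0.09, adjusted p = 1.93e-05 by edgeR). Mtrf1l, a release factor, fell by 0.61 and Mtif2, the initiation factor that brings in the first tRNA, by 0.46, with no overlap in either. Under library totals 13 of the 15 rose and 0 fell.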

How the data were processed

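Total RNA from crude heart mitochondria of 4 control and 4 knockout mice was sequenced on a MiSeq from TruSeq libraries, per the labels' protocols. The authors deposited raw counts per gene for each library, and the submitters' processing notes name DESeq2 1.14.1 in R 3.3.2, featureCounts, bedtools, SAMtools 1.3.1 and Bowtie2, and the build mm10; the sources used here give no settings, strandedness or annotation release. The deposited normalized counts (signal) equal the raw counts times 1 constant per library, to within 4.76e-11. The authors' deposited table also gives log2 fold changes with standard errors, a test score and p-values, adjusted and not.

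Here the raw counts were tested with edgeR 4.0.16 (R 4.3.3): a filterByExpr minimum count of 10, TMM scaling, the quasi-likelihood test, two-sided, and Benjamini-Hochberg adjustment over 17891 features at 0.05. Of 49584 features, 18277 had no count. The biological coefficient of variation was 11.35%. On simulated counts with the same group sizes, 78% of genes changed 1.5-fold and 100% of those changed 2-fold were recovered, with 7 false calls among 196. The simulation changed few genes, gave all genes the same variability and had no shift in mitochondrial share. These rates therefore need not hold for the real counts. Gene positions, exon lengths and overlaps came from GENCODE M21 (GRCm38), which held all 78 genes and, version aside, 49289 of the features. Copies were sought with BLAST 2.17.0 and figures drawn with matplotlib 3.10.9.

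The genes described and all gene lists were chosen with earlier results of these data known. Named genes were, per subunit, up to 6 non-overlapping rises and 6 falls by size, the highest and lowest level per length, 9 genes fixed by name, up to 3 called genes per pathway list by smallest p, Tefm and the ribosomal RNAs; other genes named were chosen after their values were seen. Alternatives were DESeq2 1.42.0, other scalings, no filter, nuclear genes alone, a replicate block, each library left out, and, chosen after seeing the data, copies added, overlapped genes left out and Mrps23 left out.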

Additional observations from a re-analysis of the deposited data

Results flagged for a closer look

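Dixon's test for 1 library far from the other 3 of its group was applied to 98 groups of 4 values, of which chance alone would mark about 1 in 20, or 4.9, and it marked 3. Mrps21 was at 8.96 CPM in control 2 against 7.58 to 7.80 in the other controls. mt-Rnr1 was at 235047 CPM in knockout 1 against 97433 to 114919 in the other knockouts, and mt-Rnr2 at 277573 against 103739 to 128107. Knockout 1 is also the library with the highest mitochondrial share of its group, 59.3%.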

How the results depend on the processing

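RLE size factors, nuclear genes alone, and nuclear totals kept the call of all 46 genes followed through the alternatives, where tested under them. Of these, Mrpl44, at 0.01 and not called, changed sign under nuclear totals. Aurkaip1 was not among the 46 and was not called higher under nuclear totals. The counts of Mrp genes that rose or fell stayed within 1.5 times the reported ones in all alternatives except library totals. Under library totals 69 members rose and 0 fell (Mrpl 44 and 0, Mrps 25 and 0, medians 0.96 and 1.0), as did 6 and 0 other-named ribosomal proteins, 21 and 0 assembly factors and 13 and 0 translation factors. That scaling turned the log2 fold changes of Mrm2 to 0.027, Mrpl12 to 0.95, Mrpl18 to 0.12, Mrpl21 to 0.90, Mrpl23 to 0.88, Mrpl28 to 0.40, Mrpl3 to 0.68, Mrpl34 to 0.79, Mrpl36 to 0.30, Mrpl39 to 0.26, Mrpl42 to 0.074, Mrpl49 to 0.45, Mrpl58 to 0.93, Mrps12 to 0.56, Mrps15 to 0.43, Mrps18c to 0.89, Mrps21 to 0.52, Mrps25 to 0.62, Mrps35 to 0.22, Mrps5 to 0.77, Mtif2 to 0.52, Mtrf1l to 0.39, Oxa1l to 0.77, Ptcd3 to 0.75 and Tufm to 0.31, by its construction, since mitochondrial counts enter the totals. Other-named proteins gave 1 rise and 0 falls by DESeq2, 1 rise with nuclear totals and 0 falls without a filter, and DESeq2 gave 3 falls of translation factors; the cause was not tested. With the replicate number as a block, 22 members rose and 21 fell, and other-named proteins gave 1 and 1. Log CPM of each gene was expressed as a deviation from its group mean. These deviations correlated between same-numbered control and knockout libraries at -0.014 to 0.050. Such low values show no strong shared effect, and cannot tell whether these mice were littermates or handled together. Adding copies moved the medians to 0.012 (Mrpl) and 0.079 (Mrps) and turned Mrpl21 to 0.18 and Mrps18c to 0.58; the Mrpl median was 0.023 without a filter and -0.074 without overlapped genes. The log2 subunit ratio was -0.081 by structure, -0.024 with equal weights and -0.063 without Mrps23. Leaving out 1 library at a time gave 20 to 23 rises and 17 to 25 falls of members, 1 to 2 rises and 0 to 2 falls of other-named proteins, 3 to 6 falls of translation factors, and an Mrps median of -0.052 to 0.11. Genes with few counts, such as Mrps36 at 9 to 20 per library, leave wide intervals.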

Other observations

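Of the 78 genes, 17 have a protein-coding gene on the other strand that starts within 500 bases upstream, without overlap. Pairs whose starts overlap, such as Mrps11 and Mrpl46, were not counted. Both genes of a pair were called by edgeR in 6 pairs, where 50% of all features tested were called. Of these pairs, 3 moved in the same direction and 3 in opposite directions, all relative to nuclear RNA. Mrpl32 and Psma2, a proteasome subunit, start 75 bases apart and rose by 0.43 and 0.44 on the log2 scale. Mrps12 and Sars2, the mitochondrial seryl-tRNA synthetase, start 172 bases apart and fell by 0.42 and 0.48. Mrpl37 and Cyb5rl also fell together, by 0.25 and 0.77. In contrast, Mrpl49 fell by 0.53 where Fau, a cytosolic ribosomal protein gene starting 59 bases away, rose by 1.01. Mrps18b rose by 1.03 where Ppp1r10, 45 bases away, fell by 0.32, and Mrpl57 rose by 0.40 where Ska3, 49 bases away, fell by 1.51. Sars2 and Ppp1r10 were close to the threshold, each with an edgeR adjusted p of 0.045. Mrpl37 was not called in the authors' table (DESeq2 adjusted p = 0.0759). The pairs were chosen after the values were known and no test of their agreement was made.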
